A study of Mus musculus with 6 samples.

Results

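The genes described here are members of the Bcl2 family that decide whether a cell lives or dies: the survival genes Bcl2, Bcl2l1 and Mcl1, the effector genes Bax and Bak1, and the BH3-only genes Bcl2l11, Bad and Bid. They were followed in double-negative thymocytes, T cell precursors without CD4 or CD8, from RAG1-deficient mice (3 arrays) and from RAG1/Ezh2 double mutant mice (3 arrays), so both groups carried a RAG1 mutation and only the second an Ezh2 mutation as well. Total RNA was read on single-colour Affymetrix mouse arrays, 1 intensity per probe set and array. Taking every probe set that the platform table assigns to exactly 1 gene, that gene being among the 8, gave 13 probe sets of 7 genes, out of 12422 probe sets on the array. The table assigned none to Bax, which was not analysed here. The labels name no allele, Cre, strain, sex or age, and nothing in them says that arrays of a group came from separate animals, so p-values measure only the spread between these arrays, which may be technical. The sample titles come in 3 styles, called numbered, Rag and Thy here, each with 1 array of either group, and the differences within these 3 pairs are given beside the group means. Titles of the Rag style do not state the double-negative stage, and 2 RAG1-deficient titles (numbered and Thy) end in WT, a term the labels leave unexplained; groups follow the descriptions.

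Bcl2 family proteins control the outer membrane of mitochondria. Survival members such as Bcl2, Bcl-xL (the product of Bcl2l1) and Mcl1 hold the effectors Bax and Bak in check, BH3-only proteins bind and block the survival members or activate the effectors, and active Bax or Bak opens the membrane and releases cytochrome c, which starts the caspase cascade. In the thymus, interleukin-7 signalling keeps early precursors alive in part through Bcl2 and Mcl1, Bcl-xL protects double-positive cells, and Bim, the product of Bcl2l11, removes self-reactive cells. Ezh2 is the enzyme of Polycomb repressive complex 2 that methylates histone H3 at lysine 27, a mark found mostly at promoters rich in CG dinucleotides.

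The promoters of these genes differ in that feature. The 250 bases before each annotated start were read from RefSeq (GRCm38.p6), which holds 12 such windows for the 8 genes, and CG, which reads the same on both strands, was counted in each. The counts ran from 0 to 36 against a median of 6 over 32851 windows of this length, and 11 of the 12 lay above that median. Among the genes with a single window, Bcl2 had the most and Bak1 the fewest, and these 2 sequences are shown for that contrast, 5′ to 3′ on the gene's strand with each CG in capitals. The Bcl2 window (chr1:106714291-106714540, minus strand) held 36, a count reached by 2.58% of all windows, and the Bak1 window (chr17:27028628-27028877, minus strand) held 8, reached by 43% of them. No histone mark or factor binding was measured, so these counts describe sequence only.
Bcl2 promoter: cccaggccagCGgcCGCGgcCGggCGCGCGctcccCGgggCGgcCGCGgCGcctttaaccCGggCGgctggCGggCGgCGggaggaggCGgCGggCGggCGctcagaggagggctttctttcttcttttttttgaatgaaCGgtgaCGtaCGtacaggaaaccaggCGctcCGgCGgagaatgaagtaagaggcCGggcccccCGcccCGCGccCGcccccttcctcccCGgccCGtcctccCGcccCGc
Bak1 promoter: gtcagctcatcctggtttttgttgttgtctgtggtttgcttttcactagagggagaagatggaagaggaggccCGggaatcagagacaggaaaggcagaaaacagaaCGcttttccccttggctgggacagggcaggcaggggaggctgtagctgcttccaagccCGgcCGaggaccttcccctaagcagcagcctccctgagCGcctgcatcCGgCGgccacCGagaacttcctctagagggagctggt

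The arrays carried some signals that bear on reading the groups. The RAG1-deficient arrays averaged 1622 ± 178 (SD, n = 3) for Ezh2 and the double mutant arrays 555 ± 231 (SD, n = 3), both as scaled intensity. The groups did not overlap, and the log2 difference was -1.60. Its limma adjusted p was 0.332 with group alone and 0.0261 with title style as a block. The group-alone fit thus made no call even for Ezh2. The summed level of 14 double-negative thymocyte markers on the array ran from 84658 to 124882 in the RAG1-deficient and from 74755 to 107260 in the double mutant group. The RAG1-deficient array of the numbered style stood apart. There the 7 markers of double-positive and mature T cells summed to 12516, with Cd8a at 2973 and Cd8b1 at 8426, whereas the same sum was between 689 and 933 on the other 5 arrays. The sum of 8 NK and innate lymphoid markers was 2852 to 4310 in the RAG1-deficient and 7884 to 10119 in the double mutant arrays. These sums did not overlap, and 4 of 6 tested markers were above and 2 below a difference of 0. Gzma contributed most, at 2796, 2163 and 1244 against 8096, 7946 and 4982 (numbered, Rag and Thy). In this list the groups were apart for Gzma and Gzmb only. They overlapped for Ncr1, Klrd1, Klrk1, Il2rb, Eomes and Prf1. The sum of 8 mast cell and basophil markers was 753 to 948 against 1604 to 3322, with Cpa3 at 156, 513 and 569 against 1007, 2992 and 1287 (numbered, Rag and Thy), while Fcer1a and Ms4a2, which define these cells, lay under the filter level of 86.5 on every array. Erythroid and platelet markers summed to 830 and 1471 on the Thy arrays and to at least 17036 on the other 4. Summed levels of the other lists overlapped between the groups, at 3649 to 5319 against 3226 to 4109 for B lineage, 3413 to 18615 against 3515 to 7091 for neutrophils and monocytes, 5301 to 29845 against 4984 to 20340 for antigen-presenting cells and 1934 to 3066 against 2324 to 3044 for stroma and epithelium, and no marker on the array was listed at 0. By direction, differences were below 0 for 9 of 9 tested antigen-presenting, 11 of 13 double-negative, 6 of 7 B lineage, 5 of 7 stromal and epithelial and 2 of 3 double-positive and mature T markers, and above 0 for 6 of 9 neutrophil and monocyte, 3 of 5 erythroid and platelet and 2 of 2 mast cell markers. With group alone limma called 0 of the 61 tested markers, against 0.0393% of all tested probe sets of the array. Of the 61, 7 had an unadjusted p under 0.05, against 3.19% of all. With title style as a block limma called 4 of the 61, against 0.667% of all. These were Gzma, Gzmb, Cpa3 and the PDGF receptor gene Pdgfrb. Pdgfrb stood at 135, 210 and 202 against 420, 537 and 405 (block adjusted p = 0.0436). The part of these other cells in the values of the Bcl2 family was not tested, and in bulk RNA fewer cells of a type and less RNA per cell cannot be told apart.

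No Bcl2 family gene changed between the groups by the test used. Values were compared as log2(intensity + 23), a scale on which changes of dim probe sets come out too small, and a positive difference means a higher level in the double mutant. A probe set entered the test if its intensity exceeded 86.5 on 3 or more arrays, whichever these were, which kept 11 of the 13, covering all 7 genes. In the limma fit with group alone, 0 of the 11 passed at an adjusted p under 0.05 (Benjamini-Hochberg over all 7642 tested probe sets), where 0.0393% of all tested probe sets did, and 0 of the 11 had an unadjusted p under 0.05, against 3.19% of all. With title style added as a block, 0 of the 11 passed, against 0.667% of all, and 1, Bid, had an unadjusted p under 0.05, against 13.1% of all. Adjusted p in the block fit ran from 0.324 to 0.9998. Of the 11 differences 5 lay above 0, 5 below and 1 at 0.00, their median was 0.00 against -0.0022 over all tested probe sets, and their range was -0.45 for Bid to 0.18 for a Bcl2l11 probe set. These tests do not show that the levels were equal. The 95% intervals of the group-alone fit reached down to -1.21 (Bid) and up to 1.12 (a second Bcl2l11 probe set).

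**Figure D1:**
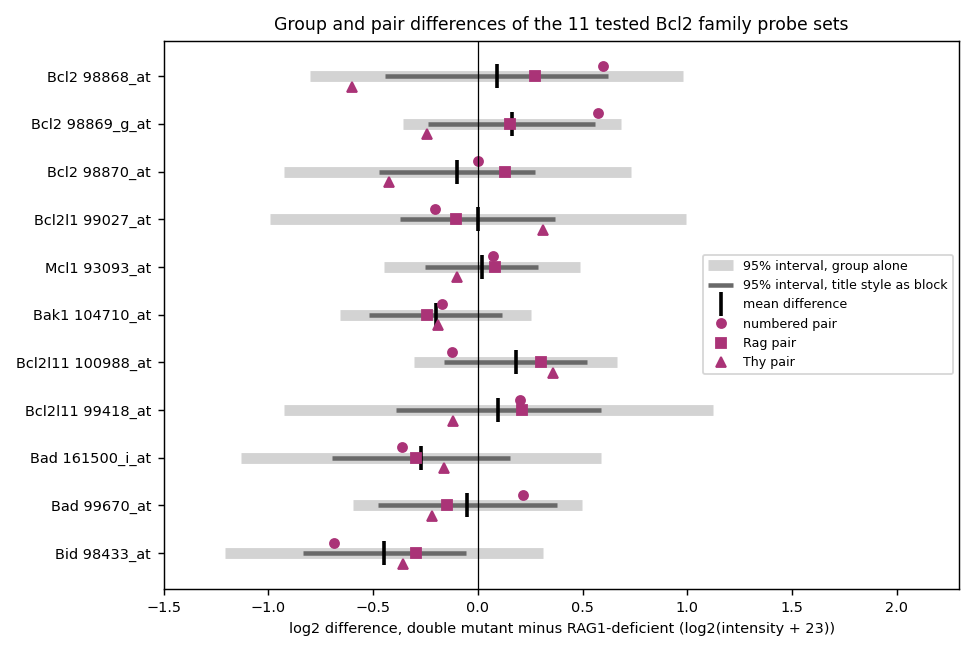
Log2 differences (double mutant minus RAG1-deficient, x axis) of the 11 tested probe sets (y axis). Black ticks are means, light and dark bars the 95% intervals of limma with group alone and with title style as a block, and symbols the 3 pairs; all 11 light bars cross 0, and of the dark bars only that of Bid (-0.84 to -0.06) does not.

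Bcl2, the founding survival gene, was read by 3 probe sets that differed among themselves. On 98868_at its intensity was 542, 766 and 505 in the RAG1-deficient arrays (in the order numbered, Rag and Thy, kept throughout) and 832, 929 and 326 in the double mutant arrays. The double mutant array of the Thy style was thus the lowest of the 6 and the other double mutant arrays the highest, so the groups overlapped. The log2 difference was 0.09 ± 0.39 (SE), from 0.60 in the numbered to -0.60 in the Thy pair. On 98869_g_at the intensity was 856, 1140 and 1183 against 1286, 1272 and 997, with a log2 difference of 0.16 ± 0.23 (SE). The numbered and Rag pairs were again higher in the double mutant and the Thy pair lower. On 98870_at the values were 627, 377 and 980 against 627, 415 and 724, a log2 difference of -0.10 ± 0.36 (SE). Here the numbered pair was level and the Thy arrays were the highest of each group, the reverse of 98868_at. Over the 6 arrays the log2 values of 98868_at had a Pearson r of 0.64 with 98869_g_at and of -0.67 with 98870_at, a description of 6 points that share title styles. All 3 probe sets were lower in the double mutant in the Thy pair (-0.60, -0.24 and -0.42), and none was lower in the numbered pair or the Rag pair. Which part of the transcript each reads is not given in the sources used here.

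**Figure D2:**
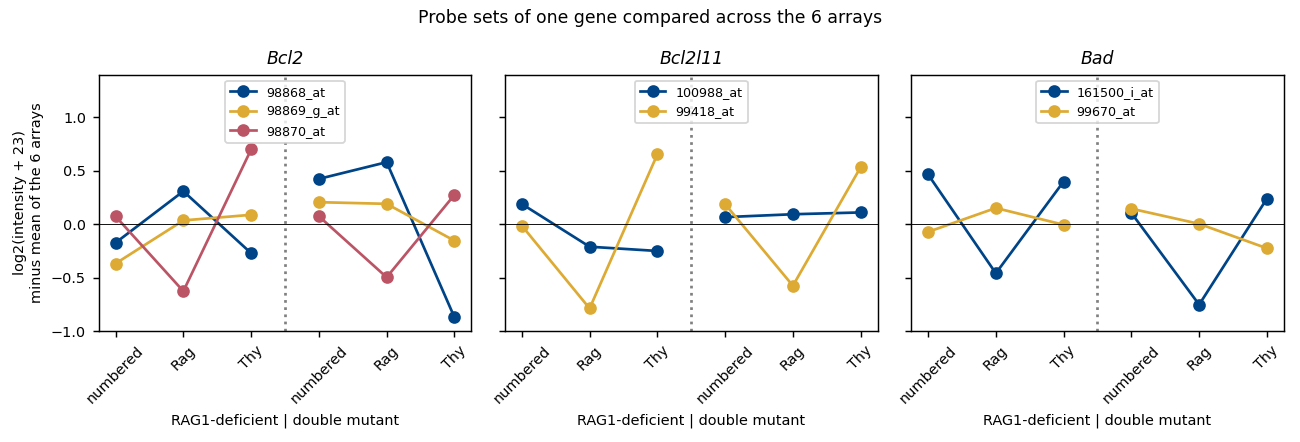
Log2(intensity + 23) of each tested probe set minus its mean over the 6 arrays (y axis) for genes with more than 1 tested probe set; arrays along the x axis, RAG1-deficient left of the dotted line and double mutant right, lines joining the arrays of a group for 1 probe set. The probe sets of Bcl2, of Bcl2l11 and of Bad follow different courses over the same arrays.

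Bcl2l1, which encodes Bcl-xL, had 1 probe set above the filter. On 99027_at it stood at 1016, 378 and 433 in the RAG1-deficient and at 879, 349 and 542 in the double mutant arrays. Both numbered arrays were far above the others and the group means hardly differed, at 609 ± 354 (SD, n = 3) and 590 ± 268 (SD, n = 3). The log2 difference was 0.00 ± 0.43 (SE), made of -0.20, -0.11 and 0.31 in the 3 pairs. Without the RAG1-deficient numbered array, the one with CD8 transcripts, the group-alone difference was 0.43, and with the whole numbered pair left out of the block fit it was 0.10. The other probe set of Bcl2l1, 99026_at, lay under the filter level on all 6 arrays, at 36.1, 10.1 and 14.1 against 4.70, 6.60 and 13.3, and was not tested.

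Mcl1, a short-lived survival protein that lymphocytes need at many stages, was steady over the arrays. On 93093_at its intensity was 1731, 1919 and 1679 in the RAG1-deficient and 1820, 2033 and 1564 in the double mutant arrays. The groups overlapped, and the Rag arrays were the highest and the Thy arrays the lowest in both. The log2 difference was 0.02 ± 0.21 (SE), with a 95% interval from -0.45 to 0.49, or from -0.25 to 0.29 with title style as a block.

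Bak1, the effector that sits in the mitochondrial membrane, was the only tested probe set of the 11 whose groups did not overlap. On 104710_at it stood at 601, 661 and 582 in the RAG1-deficient and at 531, 554 and 508 in the double mutant arrays. Every double mutant array was below every RAG1-deficient array, which was so for 2.92% of all tested probe sets, and groups were apart in either direction for 7.13%. One of 11 is 9.09%, so the share among these probe sets is near that of the array. The means were 615 ± 40.8 (SD, n = 3) and 531 ± 22.95 (SD, n = 3), a decrease of 13.6% in the mean. The log2 difference was -0.20 ± 0.20 (SE), with a 95% interval from -0.66 to 0.25, and the pairs gave -0.17, -0.24 and -0.19. The limma adjusted p was 0.9999 with group alone and 0.585 with title style as a block.

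Bcl2l11, which encodes the BH3-only protein Bim, was read by 3 probe sets. On 100988_at the RAG1-deficient arrays spread from 801 (Thy) over 824 (Rag) to 1094 (numbered), while the double mutant arrays lay close together at 1003, 1022 and 1035. The groups overlapped because the numbered RAG1-deficient array was the highest of all 6. The log2 difference was 0.18 ± 0.21 (SE), with pair differences of -0.12, 0.30 and 0.36. Without the numbered RAG1-deficient array it was 0.32 (limma adjusted p = 0.999), and without the numbered pair in the block fit 0.33 (adjusted p = 0.474). Without the Thy array of the RAG1-deficient group it was 0.10, and without the Thy pair in the block fit 0.09. On 99418_at the values were 163, 85.5 and 272 against 190, 103 and 248, a log2 difference of 0.10 ± 0.45 (SE). The Rag arrays were the lowest and the Thy arrays the highest in both groups there, a course that 100988_at did not share (Pearson r of 0.03 over the 6 arrays). The remaining probe set, 99419_g_at, was under the filter level on all arrays, at 57.3, 16.8 and 17.4 against 35.2, 5.0 and 48.6, and was not tested.

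Bad, a BH3-only protein that survival kinases hold inactive by phosphorylation, had 2 tested probe sets. On 161500_i_at it stood at 310, 153 and 295 in the RAG1-deficient and at 237, 120 and 262 in the double mutant arrays. Every pair had its lower value in the double mutant, with log2 differences of -0.36, -0.29 and -0.16, yet the groups overlapped because the Rag arrays of both were far below the rest. The group difference was -0.27 ± 0.38 (SE). On 99670_at the values were 241, 285 and 253 against 284, 255 and 214, a log2 difference of -0.05 ± 0.24 (SE). That probe set was higher in the double mutant in the numbered pair (0.22) and lower in the others, so the lower level on 161500_i_at rests on 1 of the 2 probe sets.

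Bid, which caspase-8 cleaves to carry a death receptor signal to mitochondria, showed the widest difference of the 11. On 98433_at its intensity was 599, 388 and 274 in the RAG1-deficient and 363, 312 and 209 in the double mutant arrays. The order of the styles was the same in both groups, numbered above Rag above Thy, and in each pair the double mutant array was lower. The means were 420 ± 165 (SD, n = 3) and 294 ± 78.6 (SD, n = 3), and the groups overlapped. The log2 difference was -0.45 ± 0.33 (SE), made of -0.69, -0.30 and -0.36, with limma adjusted p of 0.9999 with group alone and 0.324 with title style as a block, where its unadjusted p of 0.0295 ranked 695 among 7642. Its highest value came from the RAG1-deficient array with CD8 transcripts. Without that array the group-alone difference was -0.17, and without the Thy array of the RAG1-deficient group it was -0.70. Each of these 2 fits leaves a title style in the double mutant group only. With a whole pair left out, the block fit gave -0.33 without the numbered pair (limma adjusted p = 0.559). It gave -0.52 without the Rag pair and -0.49 without the Thy pair. Leaving out arrays or pairs thus moved the difference between -0.70 and -0.17.

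Lower levels in all 3 pairs were seen for Bak1, for Bid and for 161500_i_at of Bad, which is 3 of the 11 or 27.3%, against 17.1% of all tested probe sets. No probe set of the family was higher in all 3 pairs, against 18.8% of all. The 3 belong to the effector and BH3-only classes. In the same classes, the second Bad probe set and both tested Bcl2l11 probe sets gave pairs of mixed sign. The tested probe sets of the survival genes Bcl2, Bcl2l1 and Mcl1 also gave mixed signs. Among survival genes, the untested 99026_at of Bcl2l1, under the filter level, was lower in each pair (-1.09, -0.16 and -0.03). So was Bcl2l2, a relative outside the 8 (-0.29, -0.22 and -0.49). A difference between the classes was not tested.

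**Figure D3:**
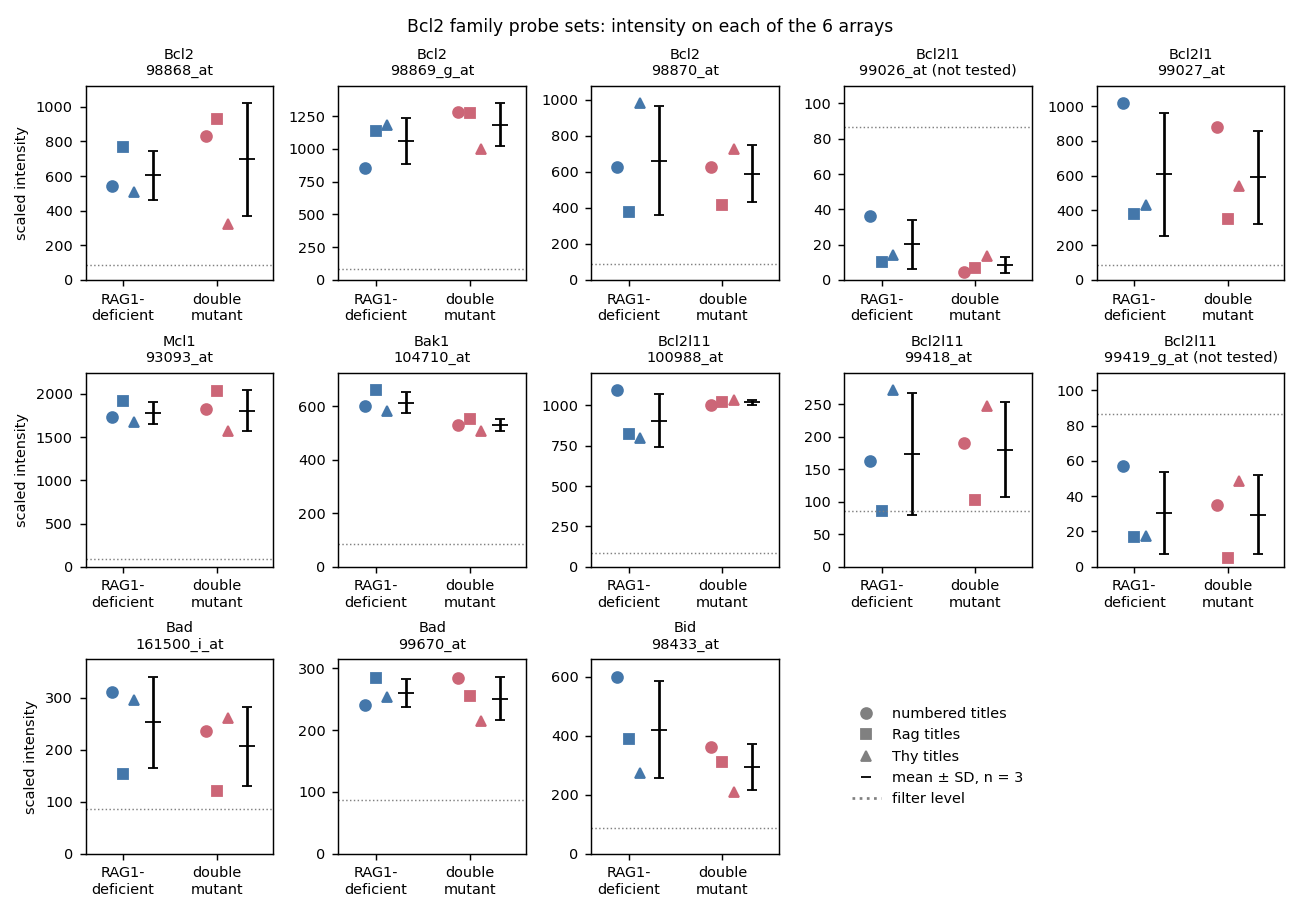
Scaled intensity (y axis, from 0) of the 13 probe sets on the 6 arrays, RAG1-deficient in blue and double mutant in red, with symbols for the title style, mean ± SD (n = 3) beside each group and the filter level of 86.5 dotted. Only the groups of Bak1 are apart; the 2 probe sets marked as not tested lie under the filter level on every array.

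The means of the title styles lay further apart than the group means for most of these probe sets. For 10 of the 11 (90.9%) the range of the 3 style means exceeded the size of the group difference, as it did for 88.4% of all tested probe sets, so the share is near that of the array. A range over 3 means of 2 arrays tends to be wider than a difference between 2 means of 3 arrays by construction. The median range of the style means was 0.90 on the log2 scale over the 11 and 0.62 over all, and the median size of the group difference was 0.10 and 0.17. The range was widest for Bcl2l1 (1.33), with the numbered arrays highest, and for 99418_at of Bcl2l11 (1.28), with the Thy arrays highest. It was narrowest for Bak1 (0.15), for 99670_at of Bad (0.19) and for 98869_g_at of Bcl2 (0.19). Bak1 was the exception among the 11, its group difference being wider than its range over styles. The Rag arrays were the lowest of their group on 98870_at of Bcl2, on 99027_at of Bcl2l1, on 99418_at of Bcl2l11 and on 161500_i_at of Bad. The same arrays were the highest of their group on 98868_at of Bcl2, on Mcl1 and on Bak1. They also had the highest ratio of 3′ to 5′ control probe sets in each group. For beta-actin this ratio was 2.26 and 2.77, against 1.24 to 1.99 on the other 4 arrays. The part of this ratio in the values of the family was not tested.

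**Figure D4:**
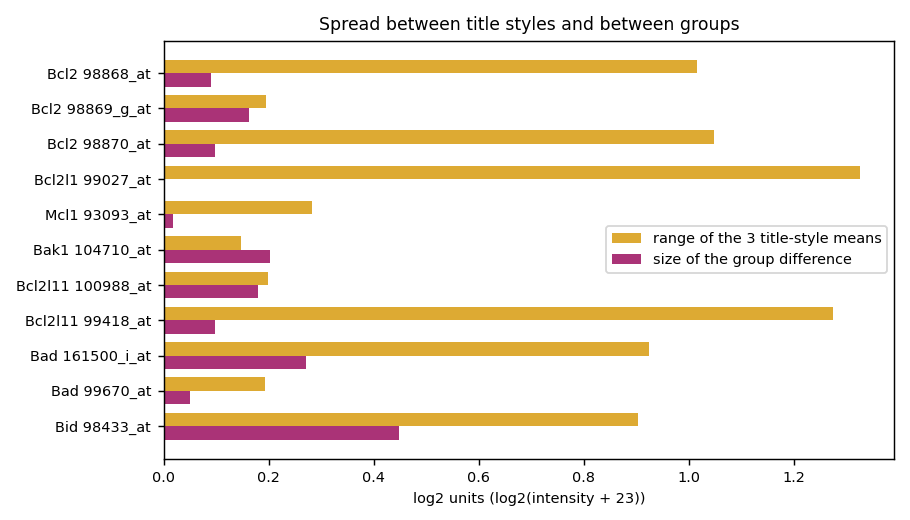
For each tested probe set (y axis), the range of the 3 title-style means (yellow bars) and the size of the group difference (purple bars), both in log2 units (x axis, from 0). The yellow bar is the longer for all but Bak1, and Bcl2l1 pairs the longest yellow bar (1.33) with a difference of 0.00.

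The rest of the apoptosis machinery was examined with 6 further lists, of which 80 genes were tested, 1 probe set a gene. In limma 0 of these 80 passed in either fit. At an unadjusted p under 0.05, 0 did so with group alone and 9 (11.2%) with title style as a block, against 3.19% and 13.1% of all tested probe sets. Differences were above 0 for 42 and below for 38, with a median of 0.0061, and the groups did not overlap for 2 of the 80 (2.5%), Casp9 and Stat3, against 7.13% of all. The 2 genes of each list with the smallest group-alone p on any tested probe set are given next, with values and no call.

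Among the other Bcl2 family genes 5 of the 17 listed were tested, 3 above and 2 below 0 (median 0.03). The survival gene Bcl2l2 (Bcl-w) stood at 539, 675 and 505 against 436, 576 and 354, a log2 difference of -0.33 ± 0.25 (SE). It was lower in each pair while the groups overlapped. Bcl2l10, a further relative, had -0.71 ± 0.48 (SE) on 162021_r_at, a dim probe set at 31.8 to 121, and a second probe set exceeded the filter level on too few arrays to be tested. Among partners and regulators of the family 20 of 25 were tested, 12 above and 8 below 0 (median 0.05). The cochaperone Bag3 had 0.68 ± 0.38 (SE) on its dimmer and 0.22 ± 0.29 (SE) on its brighter probe set. The mitochondrial channel gene Vdac3 stood at 840, 1011 and 855 against 868, 1349 and 1200, a log2 difference of 0.31 ± 0.24 (SE).

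Downstream of the membrane, 14 of 20 caspase and apoptosome genes were tested, 8 above and 6 below 0 (median 0.0034). Casp9, the caspase that the apoptosome activates, was 170, 196 and 167 against 221, 233 and 203 on its brightest probe set, where the double mutant arrays were all higher, as for 4.21% of all tested probe sets. Its log2 difference there was 0.27 ± 0.25 (SE), and 2 further tested probe sets gave 0.0059 and -0.10. Endog, a mitochondrial nuclease, had -0.54 ± 0.40 (SE). Inhibitors of apoptosis went both ways, 2 above and 3 below 0 among 5 tested of 9, with a median of -0.41. Xiap, chosen after its values were seen, counts among those above. It had 0.39 on its counted probe set and -0.25 on another that was nearly as bright. In limma with the block, 3 of the 5 had an unadjusted p under 0.05, against 13.1% of all tested probe sets. Birc5 (survivin), which also serves in mitosis, stood at 1258, 879 and 740 against 1317, 1219 and 1373, a log2 difference of 0.47 ± 0.24 (SE), and was higher in each pair. Birc6 had -0.47 ± 0.28 (SE) and was lower in each pair, most in the Thy pair (-1.04).

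Of 18 death receptor genes 13 were tested, 4 above and 9 below 0 (median -0.03). The death ligand gene Fasl had a log2 difference of 0.46 ± 0.35 (SE), and the TNF receptor gene Tnfrsf1a, on its tested probe set, -0.23 ± 0.24 (SE). Of 31 upstream survival genes 23 were tested, 13 above and 10 below 0 (median 0.04). The transcription factor gene Stat3 stood at 1162, 1135 and 985 against 1386, 1477 and 1442 on its brighter probe set, without overlap, with a log2 difference of 0.39 ± 0.20 (SE), and its other probe set gave 0.45. Pdpk1, a kinase that activates Akt, had -0.59 ± 0.32 (SE) on 1 probe set and -0.05 ± 0.40 (SE) on a brighter probe set. Il7r, the interleukin-7 receptor chain, was chosen after its values were seen. It stood at 1337, 1495 and 1890 against 1075, 1050 and 1470, a log2 difference of -0.39 ± 0.24 (SE), and limma made no call with or without the block. Other cytokine signalling genes of this list, also chosen afterwards, went both ways. Stat5a had 0.42 and 0.36 on its probe sets, Stat5b 0.60 ± 0.81 (SE), Cish 0.18 and Jak1 0.04. Jak3 had -0.04 and Socs1 -0.26. None of these passed in either limma fit. With the block, 5 of the 23 tested genes of this list had an unadjusted p under 0.05 in limma, against 13.1% of all tested probe sets. Of these, Il7r lay below 0 and the rest, with Stat3, Stat5a and Stat5b among them, above.

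**Figure D5:**
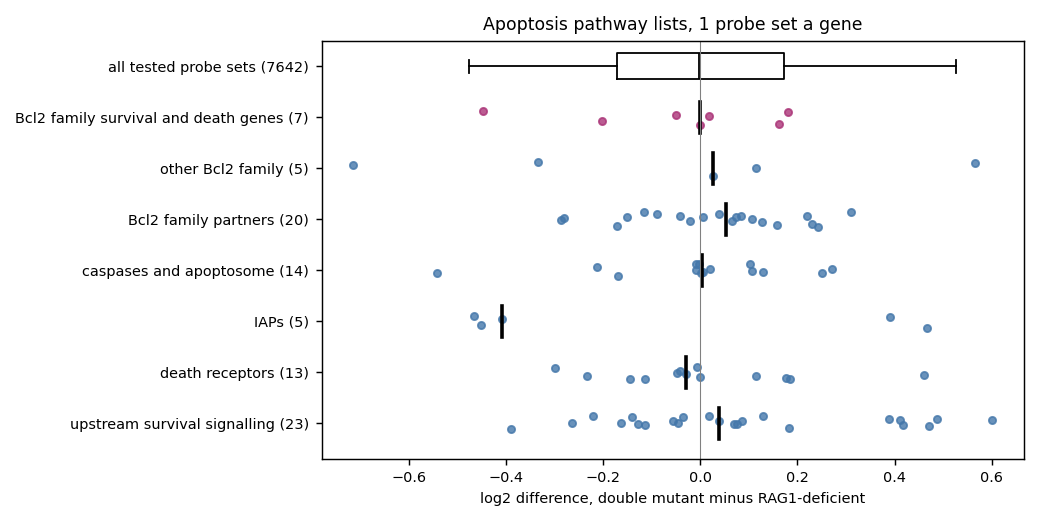
Log2 difference (double mutant minus RAG1-deficient, x axis) of each tested gene by list, 1 probe set a gene, with the number tested in parentheses; dots are genes, vertical bars medians, and the box above holds the middle of all 7642 tested probe sets (quartiles, with whiskers from the 5th to the 95th percentile). Most dots lie within the whiskers, and the list medians run from -0.41 to 0.05.

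The probe set with the smallest p of the family, 98433_at of Bid, was set against all other named and tested probe sets. The nearest courses over the 6 arrays were those of Ets2 (Pearson r = 0.99), Gon4l (0.99) and Hfe (0.98). The 6 arrays share title styles, and 23 of 6876 probe sets exceeded an r of 0.95. The log2 differences of the 3 genes were -0.45, -0.11 and -0.44, and none passed in either limma fit.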

How the data were processed

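The deposited table holds linear intensities, which the authors had scaled: the 2%-trimmed mean was 500.293 to 500.37 on all 6 arrays, as read from the values. The software is not given in the sources used here. The 66 control probe sets were left out. Names came from the platform table, looked up by Entrez number in RefSeq (GRCm38.p6). Values were taken as log2(intensity + 23), 23 being the 20th percentile of all values, and the filter level of 86.5 is their 40th percentile. limma 3.58.1 (R 4.3.3, lmFit, then eBayes with trend) gave two-sided tests, SE and intervals. A check on simulated data looked at the differences, their signs and the calls, but not at the SE or intervals. The simulated data held no differences between title styles, so the check does not cover the group-alone fit in their presence. The numbers of the arrays follow title styles, 1 numbered, 2 Rag and 3 Thy. Deviations from group means correlated at 0.57, 0.74 and 0.60 within styles, so title style was also used as a block. This pairing is read from titles and data; no label states a batch. The genes and lists were chosen with earlier results of these data known. Lists used the brightest tested probe set of a gene. All probe sets of the Bcl2 family genes were described. From each other list these were the 2 genes with the smallest p and any that passed. Il7r, other cytokine signalling genes and Xiap were added after their values were seen. The 3 genes most like the member with the smallest p were also described. Figures used matplotlib 3.10.9 (Python 3.11.15).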

Additional observations from a re-analysis of the deposited data

How the results depend on the processing

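Under the 18 alternatives tried, 0 Bcl2 family probe sets and 0 genes of the other lists passed in limma; the smallest adjusted p of a family probe set was 0.32 (Bid, block with quantile normalization). Bid, Bak1 and 100988_at of Bcl2l11 kept their direction in all 18. Several of these could not have turned it. Adding the block, changing the filter or dropping the trend leaves the difference itself unchanged. For Bid and Bak1 all 3 pairs were below 0, so neither leaving out a pair nor another pseudocount could turn it. The groups of Bak1 did not overlap, so leaving out an array could not turn it there either. The block (pairing by title style) changed no call of these genes. Over all tested probe sets it gave 43 higher and 8 lower, against 3 and 0 with group alone. The count called higher was 1 with the filter on all 6 arrays, 5 with quantile normalization, 17 with block and quantile normalization and 5 with block and no filter. Leaving out arrays or pairs moved it between 0 and 127, and the count called lower between 0 and 64. In the block fit it was 127 higher and 64 lower without the Rag pair, 12 and 2 without the numbered pair and 3 and 0 without the Thy pair, and in the group-alone fit 0 were higher without either Thy array, 1 without the double mutant Rag array and 6 without the RAG1-deficient numbered array. The causes were not tested. The difference of Bcl2l1, 0.00, turned to -0.0025 with a pseudocount 4 times as large and to -0.0077 with quantile normalization in either fit. With arrays or pairs left out, differences that changed sign ran from -0.32 to 0.43 for Bcl2l1, -0.071 to 0.12 for Mcl1, -0.57 to 0.037 and -0.18 to 0.049 for Bad (161500_i_at, 99670_at), -0.18 to 0.55, -0.043 to 0.36 and -0.44 to 0.23 for Bcl2 (98868_at, 98869_g_at, 98870_at) and -0.27 to 0.45 for 99418_at of Bcl2l11. The number of arrays limits the precision.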
